A study of Sus scrofa with 48 samples.

Results

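The genes described here encode the machinery that burns fatty acids in mitochondria and peroxisomes, together with enzymes of ketone body metabolism, in subcutaneous adipose tissue (SCAT) of the pig. The list held 36 genes, named by symbol: 21 mitochondrial, 12 peroxisomal and 3 ketone genes. A probe of the array carried the symbol of 34 of them, all 34 passed the filter on dim probes, and they were tested among 11081 genes. BDH1 and PECR were matched to no probe and were not analysed here.

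The samples were dorsal SCAT of 48 pure Large White barrows aged 132 days, with 1 array per pig and 12 pigs in each of 4 groups. HF_RFIneg pigs and HF_RFIpl pigs received a high-fat, high-fiber diet (HF), in which plant oils and wheat straw replaced part of the cereal starch. LF_RFIneg pigs and LF_RFIpl pigs received the LF diet, low in fat and fiber and rich in starch, made to supply the same energy per kg. Feed was freely available to every pig, so the amount eaten was not held equal between diets. RFIneg and RFIpl are 2 lines selected over generations for low and for high residual feed intake (RFI), the feed an animal eats beyond what its growth predicts, so that low RFI pigs are the more efficient. There is 1 line per direction of selection, so selection on RFI and drift between the lines cannot be told apart. Of 10 adipocyte markers, 9 were measured (ADIPOQ, PLIN1, FABP4, LPL, LIPE, PNPLA2, CIDEC, CIDEA and GPD1), and each was well above background on all 48 arrays; these mark adipose tissue but do not tell one fat depot from another. Each array is a measure of bulk tissue, in which fewer cells of a type and less RNA per cell cannot be told apart. The share of probes well above background was 62.2% to 81.9% per array.

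Long-chain fatty acids enter mitochondria as carnitine esters. CPT1 on the outer membrane makes the ester, the translocase SLC25A20 carries it across the inner membrane and CPT2 restores the acyl-CoA, which is then shortened in repeated rounds of dehydrogenation, hydration, a second dehydrogenation and thiolysis. Peroxisomes shorten very long and branched chains with their own oxidases and multifunctional enzymes, and hand the products on as carnitine esters (CROT) or free acids (the thioesterases ACOT4 and ACOT8). White adipose tissue mainly stores fat, and its oxidation capacity is modest beside that of liver or muscle.

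The array reads each gene through probes of 60 bases. The deposited files give their letters but no genome position, so none is stated. The following probes carry the results below. For ACOT4, a thioesterase known to act on succinyl-CoA and other dicarboxylic acyl-CoAs, the brighter probe and the dimmer one gave opposite differences between lines.
ACOT4, brighter probe: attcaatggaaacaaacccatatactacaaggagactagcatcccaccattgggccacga
ACOT4, dimmer probe: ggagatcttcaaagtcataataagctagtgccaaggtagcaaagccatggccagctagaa
As printed, the brighter ACOT4 probe has 2 reading frames without a stop codon. The dimmer one has none, while its reverse complement has 1. Among all 60305 probe sequences of the array, 14.3% had an open frame on the other strand only, so this is a common state, and which strand the dimmer probe reports was not tested.

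For CPT1B, the muscle-type carnitine palmitoyltransferase, the brightest probe differed between diets and the next brightest did not.
CPT1B, brightest probe: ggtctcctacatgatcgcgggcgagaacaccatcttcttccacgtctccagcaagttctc
CPT1B, next probe: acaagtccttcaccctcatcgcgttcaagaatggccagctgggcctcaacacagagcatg
For ECI2, an isomerase that moves the double bond of unsaturated chains so that oxidation can go on, the probes overlap. Capitals mark the 51 bases they share, so their values are not separate readings of the transcript.
ECI2, brighter probe: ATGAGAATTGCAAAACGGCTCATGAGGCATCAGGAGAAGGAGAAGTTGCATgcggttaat
ECI2, dimmer probe: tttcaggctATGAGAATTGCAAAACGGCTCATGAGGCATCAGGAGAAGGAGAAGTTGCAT
ACAA1, the peroxisomal thiolase, is shown because its probes gave nearly one value for the line.
ACAA1, brightest probe: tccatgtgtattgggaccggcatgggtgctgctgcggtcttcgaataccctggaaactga
The 34 genes had 111 kept probes, and 4 of the genes (ACAA1, ACADS, CPT1B and CRAT) each had a pair of probes with identical letters.

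Values are log2 signals relative to the median of the same array, read on the brightest kept probe of each gene. Since probes differ in brightness for reasons unrelated to transcript number, no gene's level is set against another's. A difference is a log2 fold change, HF minus LF for the diet and low minus high RFI for the line, each with its standard error (SE). A gene was called where limma gave an unadjusted p under 0.01, a Benjamini-Hochberg adjusted p under 0.08 over all genes, and a fold change above 1.1, the cut-offs of the study's methods.

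CPT1B rose and ECI2 fell on the HF diet, so 2 of 34 were called, where 12.6% of all genes tested were called for the diet. None of the 11 peroxisomal genes and neither ketone gene was called. The median difference over the 34 genes was -0.06, beside -0.04 over all genes, and 20 of the 34 were below 0 (58.8%), as were 62.3% of all genes.

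CPT1B was higher on the HF diet in both lines. In HF_RFIneg pigs its log2 signal ran from -1.49 through a median of -1.07 to -0.60, and in HF_RFIpl pigs from -1.57 through -1.24 to -0.81. In LF_RFIneg pigs it ran from -1.72 through -1.41 to -0.94, and in LF_RFIpl pigs from -2.10 through -1.48 to -0.94. The diets overlapped, but 20 of 24 HF pigs lay above the LF mean and only 5 of 24 LF pigs above the HF mean. The difference was 0.30 (SE 0.08; limma adjusted p = 0.0099), a 1.23-fold rise, and it was 0.33 in the low RFI line and 0.28 in the high RFI line. The other probes did not all follow. A dimmer probe of other letters gave 0.30 (SE 0.10), and another spot with the same 60 letters, which the array files do not name as CPT1B, gave 0.37 (SE 0.10). The faintest probe gave 0.30 (SE 0.14), but its description also names choline kinase beta, and it was well above background on only 39 of 48 arrays. The next-brightest probe printed above gave -0.00 (SE 0.10), and its copy with identical letters gave -0.06 (SE 0.11). With the mean of all CPT1B probes the difference was 0.17 and no longer called (limma adjusted p = 0.136).

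CPT1B is best known from skeletal muscle, so markers of muscle are given beside it. Of 10 such markers, 9 were measured (ACTA1, MYH1, MYH2, MYH7, TNNT3, TNNC2, CKM, MYLPF and ATP2A1), well above background on 29 to 48 of the 48 arrays, none at 0. All 9 had differences below 0 on the HF diet, as had 62.3% of all genes, with a median of -0.20. None of the 9 was called, where 12.6% of all genes were, and none was at an unadjusted p under 0.05. Their mean deviation from the average pig ran from -0.49 to 1.36 in HF_RFIneg, -0.61 to 0.26 in HF_RFIpl, -0.38 to 1.34 in LF_RFIneg and -0.48 to 1.80 in LF_RFIpl pigs. The part of muscle in the CPT1B difference was not tested.

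ECI2 was lower on the HF diet, and its spread was wider on the LF diet. In HF_RFIneg pigs it ran from -1.53 through a median of -1.28 to -0.52, and in HF_RFIpl pigs from -1.65 through -1.36 to -0.64. In LF_RFIneg pigs it ran from -1.95 through -0.84 to -0.08, and in LF_RFIpl pigs from -1.61 through -0.83 to 0.04. The groups overlapped over most of their range, with 19 of 24 LF pigs above the HF mean and 7 of 24 HF pigs above the LF mean. The difference was -0.36 (SE 0.12; limma adjusted p = 0.0492), a 1.28-fold drop, and the overlapping probe gave -0.26 (SE 0.11). The call was lost with scaling to the 75th percentile, where the difference was -0.32 (limma adjusted p = 0.0886). The authors' log2 table holds only the overlapping dimmer probe, which gave -0.20 there and was not called (limma adjusted p = 0.107), so that value differs in probe as well as in processing. The list counts ECI2 with the mitochondrial genes, although the enzyme is also peroxisomal and the array describes 1 of its probes as such.

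**Figure D1:**
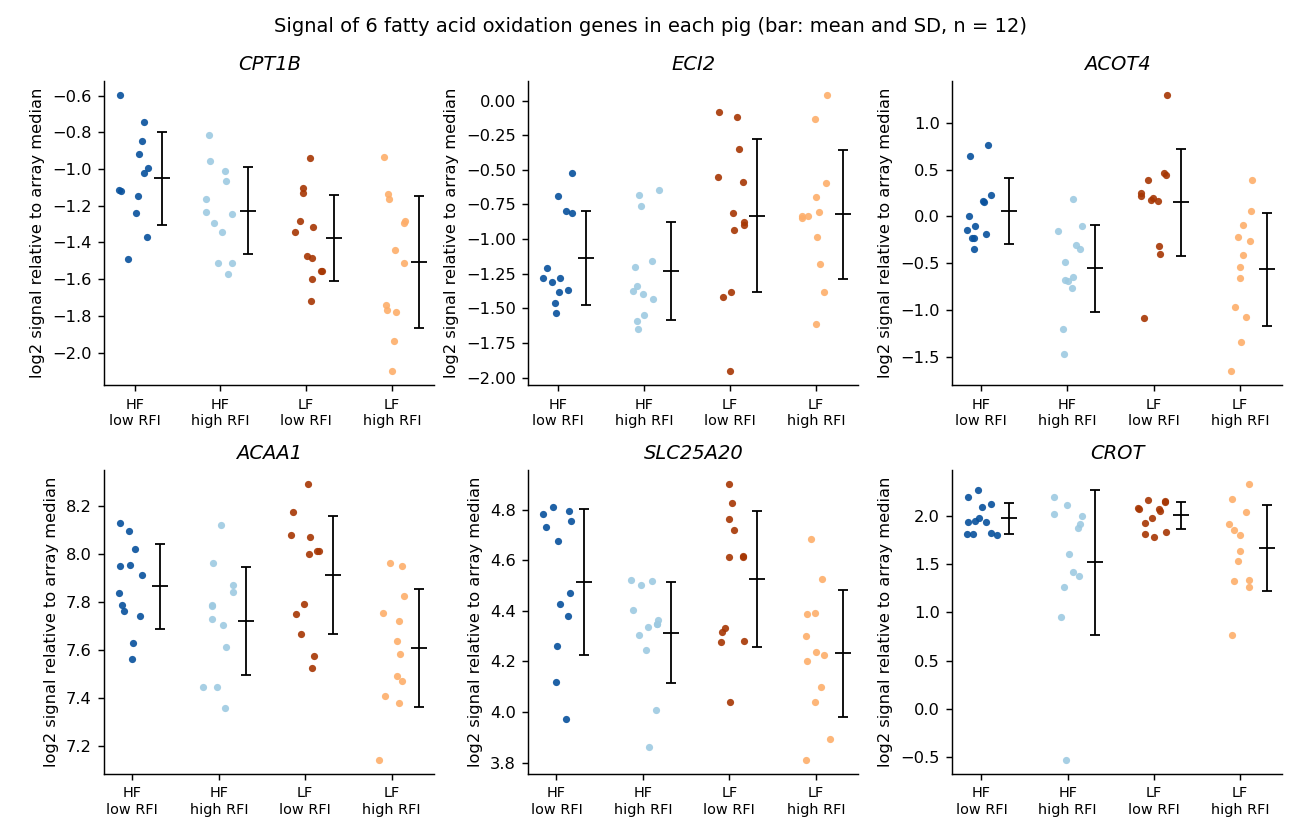
Log2 signal relative to the array median (vertical axes) of CPT1B, ECI2, ACOT4, ACAA1, SLC25A20 and CROT in each of the 48 pigs by group; points are pigs, and the bar beside them is the mean and SD (n = 12). CPT1B sits higher and ECI2 lower in HF groups, while ACOT4 sits higher in low RFI groups, where 23 of 24 pigs lie above the high RFI mean.

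The next 3 genes in order of p for the diet were ACOT8, HSD17B4 and EHHADH. All 3 are in the peroxisomal list, with lower values on HF, and none was called. HSD17B4, the multifunctional enzyme for branched chains, had a difference of -0.21 (SE 0.09; limma adjusted p = 0.118). Its signal had a median of 5.44 in HF_RFIneg, 5.53 in HF_RFIpl, 5.71 in LF_RFIneg and 5.73 in LF_RFIpl pigs. Of its other probes, 1 gave -0.19 and 1 gave 0.12 (SE 0.14). With slide as a block HSD17B4 was called (limma adjusted p = 0.0571), and with the mean of all probes it was at -0.09 (limma adjusted p = 0.570). EHHADH, the multifunctional enzyme for straight chains, had a difference of -0.20 (SE 0.09; limma adjusted p = 0.152), with -0.29 on its second probe. Its difference was -0.33 within the first scan date and -0.08 within the second. ACOT8, a broad peroxisomal thioesterase, had a difference of -0.13 (SE 0.05; limma adjusted p = 0.0741), with an unadjusted limma p of 0.0104 and a fold change of 1.097, both just short of their limits. It was -0.07 within the first scan date and -0.19 within the second. Without the filter on dim probes it was -0.14 and called (limma adjusted p = 0.0534), and with quantile normalization it was -0.08 and not called (limma adjusted p = 0.413). Over the peroxisomal genes 3 were at an unadjusted p under 0.05, all lower on HF, and over all 34 genes 4 were lower (18.8% of all genes were) and 1 was higher (7.17% of all genes were).

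The remaining mitochondrial genes gave differences between -0.23 and 0.10 by diet. In the carnitine shuttle, 4 of 5 differences were above 0: CPT1A, the form that predominates in liver and most tissues other than muscle, 0.08 (SE 0.10); SLC25A20 0.04; and CRAT, which handles short chains, 0.07. CPT2 was at -0.11. Among the first-step dehydrogenases ACADM, ACADL, ACADS and ACADVL the differences ran from -0.13 to 0.10. The genes of hydration, second dehydrogenation and thiolysis (HADHA, HADHB, HADH, ECHS1, ACAA2 and HSD17B10) ran from -0.23 for ACAA2 (SE 0.15) to 0.06 for HADHA. ECI1 was at -0.19 (SE 0.14) and DECR1, the reductase for unsaturated chains, at 0.00. ETFA, ETFB and ETFDH, which pass electrons to the respiratory chain, were at -0.11, -0.01 and -0.08, and the other ETFDH probe gave 0.12. The ketone genes ACAT1 and OXCT1 were at 0.01 (SE 0.11) and 0.09 (SE 0.08), and the dimmer ACAT1 probe gave 0.13 (SE 0.05). Among the 32 genes not called, the lowest limit of a 95% interval was -0.53, for ACAA2, and the highest was 0.29, for ACADL.

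The line gave the broader pattern. Low RFI pigs had the higher value in 28 of the 34 genes (82.4%), where 58.6% of all genes had, and the median difference was 0.11, beside 0.02 over all genes. By set, 18 of 21 mitochondrial genes (median 0.11), 8 of 11 peroxisomal genes (median 0.06) and both ketone genes (median 0.15) were above 0. Single genes rarely passed: ACOT4 alone was called, 1 of 34, where 1.18% of all genes were called for the line. With the slide row as a block, each row holding 1 array of every group, 3 of 34 were called, as were 2.63% of all genes. At an unadjusted p under 0.05, 13 genes were higher in low RFI pigs (38.2%), as were 6.25% of all genes, and 1, ACOT8, was lower, as were 4.02%. Over all 111 kept probes, 93 differences were above 0, with a median of 0.10. Over the 44356 kept probes of the array, 25277 were above 0, with a median of 0.01. These counts describe genes that share pigs and a pathway, and several probes can read the same gene. They are not independent readings.

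ACOT4 was higher in low RFI pigs on its brighter probe and lower on its dimmer one. In HF_RFIneg pigs the brighter probe ran from -0.35 through a median of -0.05 to 0.77, and in HF_RFIpl pigs from -1.47 through -0.57 to 0.18. In LF_RFIneg pigs the brighter probe ran from -1.09 through 0.21 to 1.30, and in LF_RFIpl pigs from -1.66 through -0.48 to 0.39. The lines overlapped, with 23 of 24 low RFI pigs above the high RFI mean and 2 of 24 high RFI pigs above the low RFI mean. The difference was 0.66 (SE 0.14; limma adjusted p = 0.0110), a 1.58-fold rise, and it was 0.61 on HF and 0.71 on LF. The dimmer probe gave -0.25 (SE 0.07; limma adjusted p = 0.0856 over all probes), the opposite sign. That probe ran from -2.41 through -1.91 to -1.35 in low RFI pigs and from -2.39 through -1.71 to -1.18 in high RFI pigs. With the mean of both probes ACOT4 stood at 0.21 and was not called (limma adjusted p = 0.357). ACOT4 belongs to a family of closely related thioesterases, its symbol here comes from the array files alone, and which family members each probe detects is uncertain. ACOT1, of the same family, had a line difference of 0.08.

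Other peroxisomal genes were not called by line. ACAA1 had medians of 7.88 in HF_RFIneg, 7.76 in HF_RFIpl, 8.01 in LF_RFIneg and 7.61 in LF_RFIpl pigs, with ranges of 7.57 to 8.13, 7.36 to 8.12, 7.53 to 8.29 and 7.14 to 7.96. The lines overlapped, with 20 of 24 low RFI pigs above the high RFI mean and 4 of 24 high RFI pigs above the low RFI mean. The difference was 0.22 (SE 0.06; limma adjusted p = 0.0812), just outside the limit of 0.08, and its 2 other spots, which share 1 sequence, gave 0.22 each. It was called with the slide (limma adjusted p = 0.0681), the slide row (limma adjusted p = 0.0399) or the scan date (limma adjusted p = 0.0740) as a block.

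CROT, which loads medium chains onto carnitine in the peroxisome, stood out by its spread. In low RFI pigs its signal lay between 1.78 and 2.27, and in high RFI pigs between -0.53 and 2.34. All 24 low RFI pigs lay above the high RFI mean, and 7 of 24 high RFI pigs lay above the low RFI mean. The lowest, -0.53, was an HF_RFIpl pig, followed by 0.77 in an LF_RFIpl pig and 0.95 in an HF_RFIpl pig. The difference was 0.40 (SE 0.13; limma adjusted p = 0.127), not called, and the 2 other probes gave 0.28 and 0.27. With the slide row as a block it was called (limma adjusted p = 0.0694). Those 3 arrays had 74.8% to 76.0% of probes above background, near the mean of 74.5% over all arrays.

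ABCD2, which imports very long chains, was at 0.28 (SE 0.11) and SCP2, a thiolase and lipid carrier, at 0.14 (SE 0.07), with 0.62 (SE 0.17) on its dimmest probe and 0.11 and 0.13 on the others. HSD17B4 was at 0.06, and 1 of its other probes at -0.28 (SE 0.14). ABCD3, ACOX2 and ACOX3 were at 0.00, 0.00 and -0.01. EHHADH was at -0.09 (SE 0.09). ACOT8 was at -0.12 (SE 0.05; limma adjusted p = 0.345), below 0 on 3 of its 4 probes. The peroxisomal genes thus spanned differences from -0.12 to 0.66 by line.

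**Figure D2:**
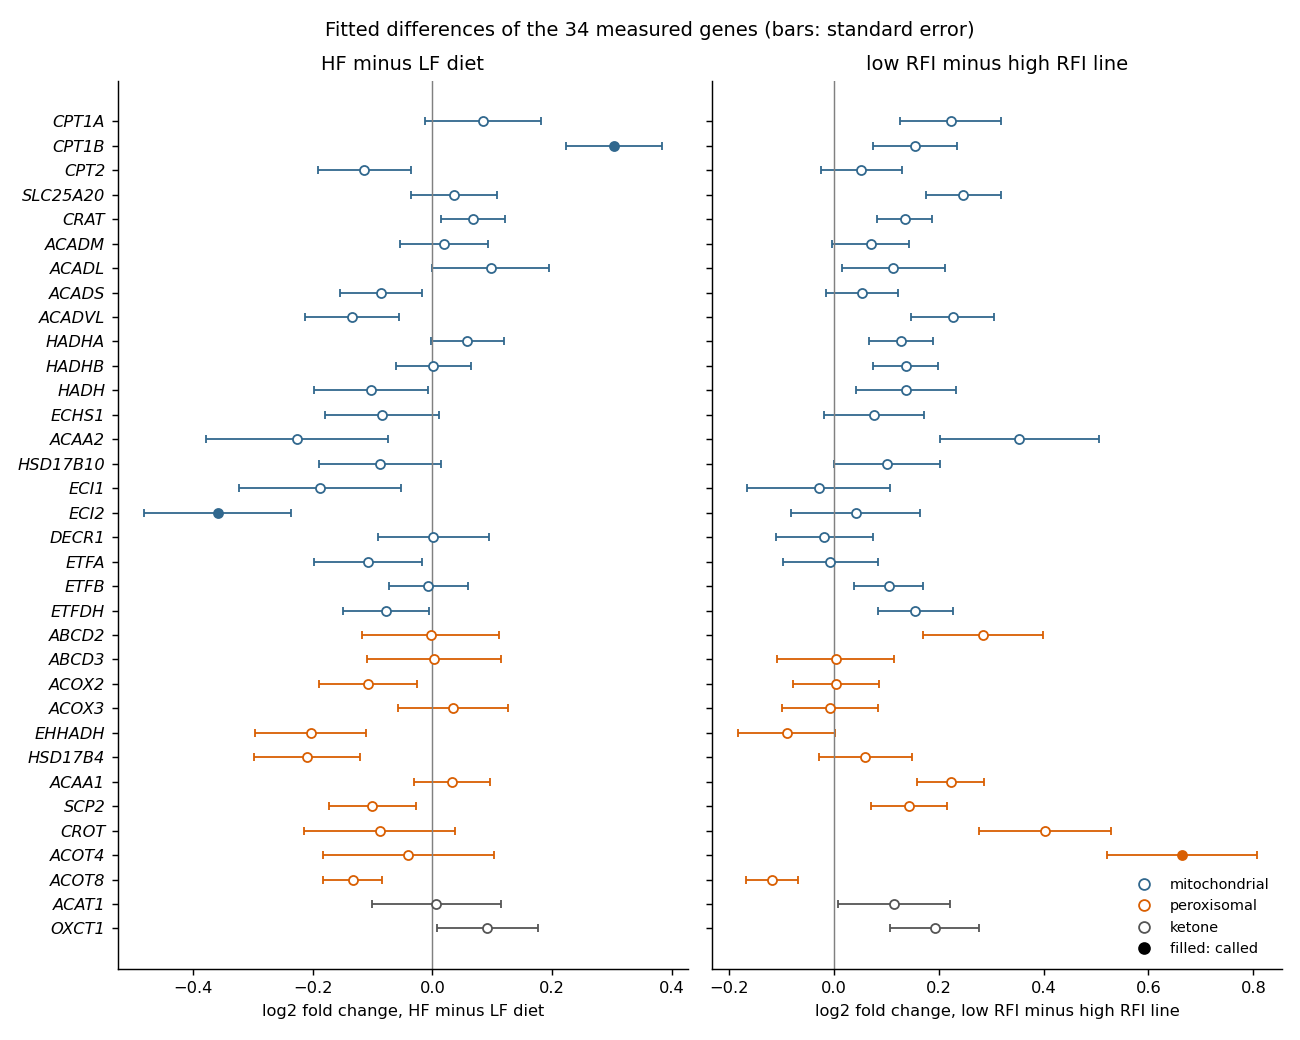
Fitted log2 fold change (horizontal axes) of the 34 genes by diet (left) and by line (right), with the standard error as bars, coloured by mitochondrial, peroxisomal or ketone set; filled points were called. By line 28 of 34 points lie right of 0, while by diet 14 do.

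Every gene of the carnitine shuttle had the higher value in low RFI pigs, and none was called. SLC25A20 had medians of 4.57 in HF_RFIneg, 4.35 in HF_RFIpl, 4.61 in LF_RFIneg and 4.23 in LF_RFIpl pigs, with ranges of 3.97 to 4.81, 3.86 to 4.52, 4.04 to 4.90 and 3.81 to 4.68. The lines overlapped, with 20 of 24 low RFI pigs above the high RFI mean. The difference was 0.25 (SE 0.07; limma adjusted p = 0.0886), with 0.18 on the second probe. With scan date as a block SLC25A20 was called (limma adjusted p = 0.0754). CPT1A was at 0.22 (SE 0.10; limma adjusted p = 0.364), and its 4 other probes gave 0.17 to 0.33. CPT1B was at 0.15, CRAT at 0.14 and CPT2 at 0.05, and the 4 other CPT1B probes ran from 0.11 to 0.43.

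Within the spiral itself, ACADVL, which starts on the longest chains, had medians of 3.45 in HF_RFIneg, 3.28 in HF_RFIpl, 3.65 in LF_RFIneg and 3.35 in LF_RFIpl pigs. Its difference was 0.23 (SE 0.08; limma adjusted p = 0.191), and its second probe gave 0.27. ACADL, ACADM and ACADS, for long, medium and short chains, were at 0.11, 0.07 and 0.05. HADHA and HADHB, the subunits of the trifunctional protein that works on long chains, were at 0.13 (SE 0.06) and 0.14 (SE 0.06). All 5 HADHA probes and all 6 HADHB probes lay above 0, and HADHA was called by line when all its probes were averaged. ACAA2, the mitochondrial thiolase, was at 0.35 but with an SE of 0.15 and a single probe. HADH, ECHS1 and HSD17B10 were at 0.14, 0.08 and 0.10, and the other ECHS1 probes ran from -0.01 to 0.02. The auxiliary enzymes ECI1, ECI2 and DECR1 were at -0.03, 0.04 and -0.02. ETFDH was at 0.16 on its brighter probe and -0.02 on its other, ETFB at 0.10 and ETFA at -0.01. Of the ketone genes, OXCT1, which activates acetoacetate for use, was at 0.19 (SE 0.08; limma adjusted p = 0.376) and ACAT1, which splits or joins acetoacetyl-CoA, at 0.11 (SE 0.11).

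**Figure D3:**
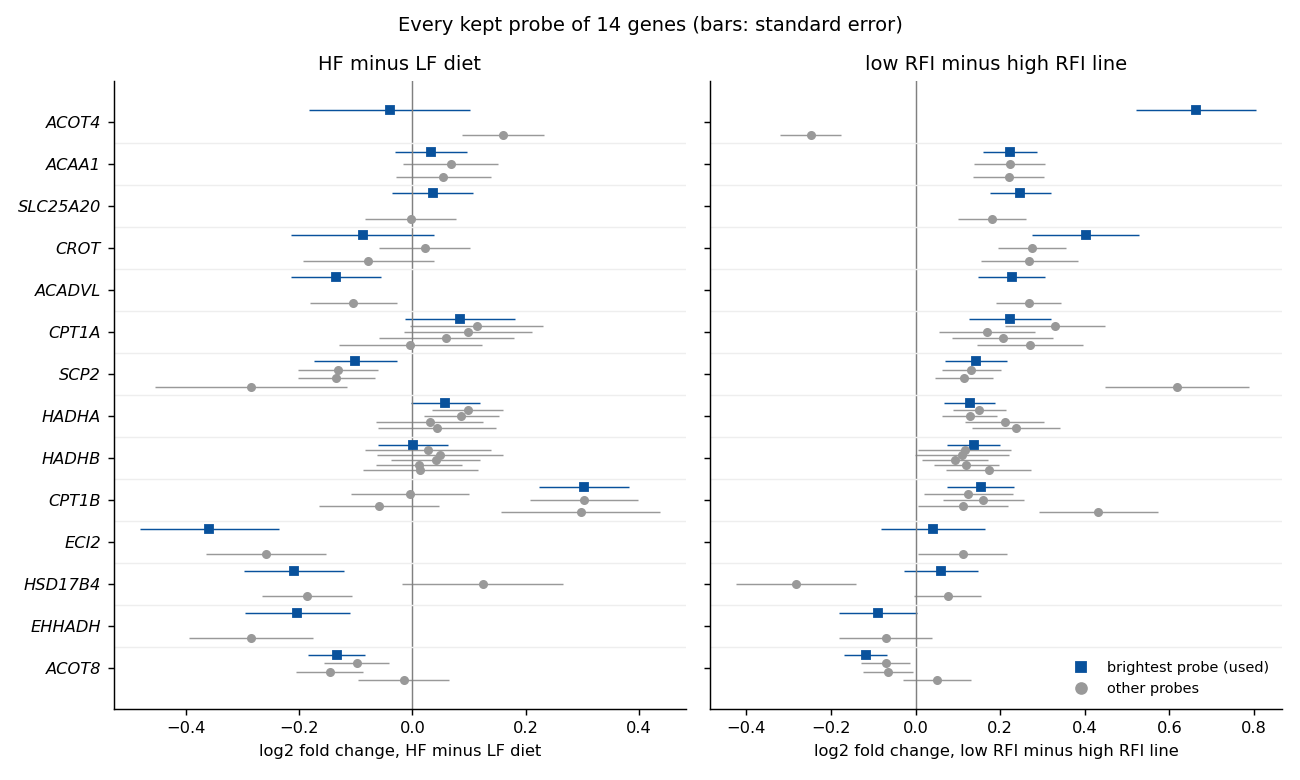
Fitted log2 fold change of every kept probe of 14 genes by diet (left) and by line (right), with the standard error as bars; squares are the brightest probes, which gave the reported values, and circles the others. The ACOT4 probes lie on opposite sides of 0 by line (0.66 and -0.25), and the CPT1B probes fall at about 0.30 and about 0 by diet.

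Averaged within a pig, the sets overlapped widely between groups. The mean deviation of the 34 genes from the average pig had a median of 0.01 in HF_RFIneg, -0.03 in HF_RFIpl, 0.13 in LF_RFIneg and 0.01 in LF_RFIpl pigs, with ranges of -0.12 to 0.23, -0.38 to 0.11, -0.45 to 0.30 and -0.54 to 0.30. The line means differed by 0.13, and single pigs had an SD of 0.19 within groups. That SD describes the spread of pigs and not the precision of the difference between means. Within the first scan date the line difference was 0.09 and within the second 0.17; each date held 24 arrays, with 6 pigs of every group.

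**Figure D4:**
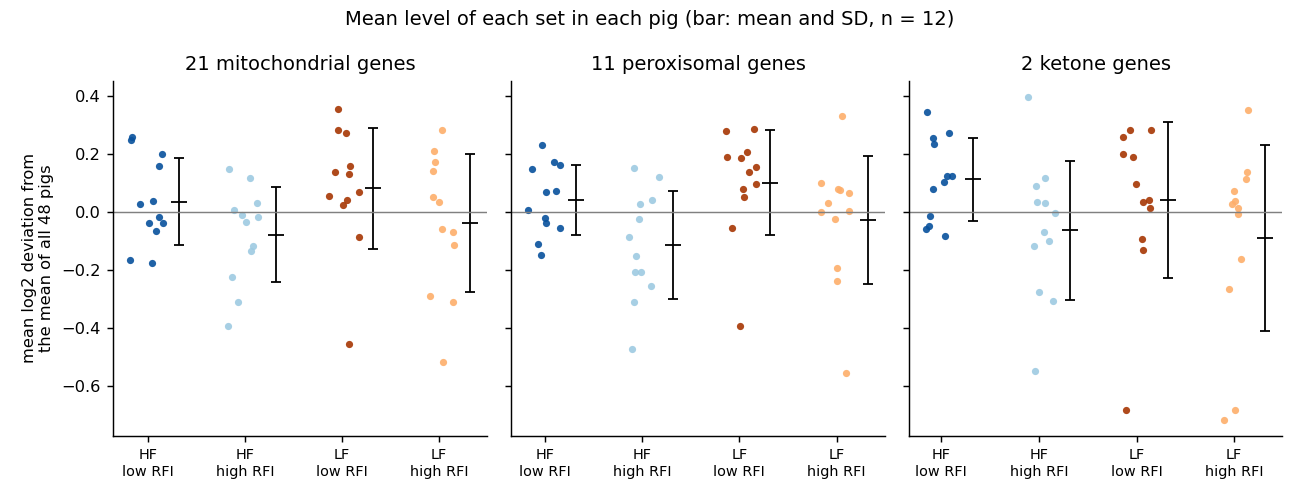
Mean log2 deviation from the average of all 48 pigs (vertical axis) over the 21 mitochondrial, 11 peroxisomal and 2 ketone genes, for each pig by group; bars are the mean and SD (n = 12). Groups overlap in every set, and the line difference was 0.12 for mitochondrial, 0.14 for peroxisomal and 0.15 for ketone genes.

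Markers of cell types were read beside these results. Of 9 adipocyte markers, 7 had the higher value in low RFI pigs, as had 58.6% of all genes, with a median of 0.12. Of the 9, 3 were higher at an unadjusted p under 0.05 (33.3%, beside 38.2% of the 34 genes and 6.25% of all genes) and none was called. Their mean deviation ran from -0.15 to 0.21 in HF_RFIneg, -0.32 to 0.22 in HF_RFIpl, -0.29 to 0.25 in LF_RFIneg and -0.37 to 0.22 in LF_RFIpl pigs. Of 8 macrophage markers, 7 had differences below 0 by line, with a median of -0.14, where 41.4% of all genes were below 0. All 6 fibroblast markers were also below 0 by line, with a median of -0.14. No marker of either type was called by line. By diet, all 6 fibroblast markers had differences above 0, as had 37.7% of all genes, with a median of 0.21. Of the 6, 2 were called, where 12.6% of all genes were. COL1A2 rose by 0.36 and PDGFRA by 0.31 on HF. The fibroblast markers' mean deviation ran from -0.47 to 0.34 in HF_RFIneg, -0.26 to 0.48 in HF_RFIpl, -0.94 to 0.32 in LF_RFIneg and -0.79 to 0.79 in LF_RFIpl pigs. The adipocyte markers had a median of -0.09 by diet, with 4 of 9 lower on HF at an unadjusted p under 0.05 (44.4%, beside 18.8% of all genes), of which CIDEA was called and fell by 0.36. Genes of mitochondrial content (CS, VDAC1, VDAC2, TOMM20, HSPD1, COX4I1, ATP5B, UQCRC1 and SDHA) had differences above 0 by line in 9 of 9 cases, as had 58.6% of all genes. Their median was 0.04 and none was called. By diet the same 9 all had differences below 0, as had 62.3% of all genes, with a median of -0.12. Of the 9, 2 were called, where 12.6% of all genes were. VDAC1 fell by 0.33 and TOMM20 fell by 0.18. The part of these cell type and content genes in the results above was not tested.

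The interaction of diet and line was called for 0 of the 34 genes, as for 0.0% of all genes. With limma, 1 of the 34 was at an unadjusted p under 0.05, as were 0.893% of all genes, and the analysis of variance of the study's methods called 0 as well. That gene was ACOX3, a peroxisomal oxidase for branched chains, with medians of 3.50 in HF_RFIneg, 3.28 in HF_RFIpl, 3.31 in LF_RFIneg and 3.68 in LF_RFIpl pigs. Its diet difference was 0.23 for RFIneg and -0.16 for RFIpl pigs, an interaction of 0.39 (95% interval 0.02 to 0.75; unadjusted limma p = 0.0404). HADH had an interaction of 0.33 (interval -0.06 to 0.71), ACAA1 of -0.16, SCP2 of -0.16 and CPT1A of -0.20 (interval -0.59 to 0.19).

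Of 32 further genes of the pathway reported here, 28 were tested. By line 22 of them were above 0 (78.6%), as were 58.6% of all genes. By line 2 rose and none fell, where 1.18% of all genes were called. PHYH, which starts the breakdown of phytanic acid, rose by 0.38 (SE 0.08, limma adjusted p = 0.0112). HSDL2, a peroxisomal dehydrogenase-like protein, rose by 0.45 (SE 0.11, limma adjusted p = 0.0382). Every other kept probe of these 2 genes was also higher in low RFI pigs. SLC27A2, which activates very long chains, was at 0.83 and was not called (limma adjusted p = 0.174); its faint probe was well above background on 36 of 48 arrays. By diet 1 fell and 1 rose, where 12.6% of all genes were called. PHYH fell by 0.27, and IVD, of leucine breakdown, rose by 0.45 (SE 0.11), although the other IVD probes ran from -0.01 to 0.44.

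Among 17 regulators of oxidation, 15 were tested. By diet 3 rose and 2 fell, where 12.6% of all genes were called. By line none was called, where 1.18% of all genes were. PPARA, the receptor that drives oxidation genes in liver, rose by 0.96 (SE 0.22; limma adjusted p = 0.0034) on its brightest probe, but its other probes gave -0.32 to 0.21. PDK4, which spares glucose when fat is burned, rose by 0.63 (SE 0.23; limma adjusted p = 0.0691), with 0.46 to 0.69 on its other probes, and UCP3, a mitochondrial carrier induced by fatty acids, rose by 0.29 (SE 0.10), with -0.10 to 0.37 on its other probes. PPARD fell by 0.60 (SE 0.13), with -0.24 and -0.01 on its other probes. RXRA, the partner of these receptors, fell by 0.21 (SE 0.06), with -0.39 on its other probe. Of 16 genes of peroxisome biogenesis, counted with catalase (CAT), 13 were tested. By diet 1 rose and 2 fell, where 12.6% of all genes were called. PEX6 rose by 0.20, with -0.16 on its other probe, PEX7 fell by 0.25 and PEX13 fell by 0.33. By line 1 of the 13 was called, where 1.18% of all genes were. CAT rose by 0.21 (SE 0.06, limma adjusted p = 0.0475) in low RFI pigs, with 0.19 to 0.22 on its other probes.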

How the data were processed

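Dorsal SCAT RNA of 48 pigs was labelled with Cy3 and hybridised to 1-colour 60-mer arrays. The authors read the images with the Feature Extraction software of Agilent, version 10.7.3.1. The deposited intensity files hold its background-subtracted processed signals, and the deposited log2 table holds the authors' median-centred log2 signals (R 2.10.0), which differed by at most 4.87e-09 from centred log2 median signals of the scanner files. The processed intensity was taken to log2 and centred on each array's median over 44356 kept probes, those well above background on at least 9 of 12 arrays of a group. The 227 outlier spots were set to missing in the fit. Symbols came from the array files and RefSeq tables (assembly Sscrofa11.1, names only); 26806 of 60306 spots had one. The brightest kept probe stood for a gene. Diet, line and their interaction were fitted in limma 3.58.1 (R 4.3.3) over 11081 genes. Named genes were those called in a contrast, filled up to 5 by smallest p. One gene of the fixed pathway list is not reported here. The members and lists were chosen with earlier results of these data known. On simulated data with 12 per group, the diet test recovered 38% of genes changed by 0.2, 92% at 0.4 and 100% at 1.2 on the log2 scale. The number of arrays limits the precision. Alternatives covered scaling, background, filter, probe choice, slide, scan date, position, replicate number, array weights and the methods' analysis of variance.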

Additional observations from a re-analysis of the deposited data

How the results depend on the processing

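Direction was the same for each of the 15 named differences (5 each for diet, line and interaction) under all 18 alternatives. The median over the 34 genes ran from -0.10 to -0.01 by diet and from 0.08 to 0.17 by line. By diet the mitochondrial median ran from -0.12 to 0.01, above 0 with the mean of all probes, the peroxisomal from -0.14 to -0.04 and the ketone from -0.03 to 0.13. By line they ran from 0.10 to 0.15, from 0.04 to 0.21 (the highest within the second scan date) and from 0.10 to 0.21. The interaction was called for 0 genes under each. By diet, where 2 of 34 genes were called, 1 was called with scaling to the 75th percentile (1184 of all 11081 genes), on the authors' log2 table (12.3% of all genes), which holds another ECI2 probe, and with the mean of all probes (12.2%), 3 without the filter on dim probes (10.5%; ACOT8 added) and with slide as a block (14.7%; HSD17B4 added), and 6 with array weights (18.5%), which added ACADVL, EHHADH, HSD17B4 and ACOT8. By line, where 1 was called, 2 were called with the stricter filter (1.5% of all genes), on the authors' log2 table (1.43%), with quantile normalization (1.34%) and with slide as a block (2.05%), ACAA1 being added in each, and 6 with array weights (4.41%), which added CPT1A, SLC25A20, ACADVL, ACAA1 and CROT. Scan date as a block gave 3 (1.86%), adding SLC25A20 and ACAA1. Either scan date alone, with 24 arrays, gave 0 for diet (5.95% and 2.34% of all genes) and 0 for line (1.03% and 0%); CPT1B by diet was then 0.33 and 0.27, ECI2 -0.39 and -0.33, and ACOT4 by line 0.51 and 0.82. Leaving out the HF_RFIpl array with the fewest probes above background (62.2%), an alternative chosen after seeing the data, gave 3 by line (1.30%), adding SLC25A20 and ACAA1, and 3 by diet (13.1%), adding ACOT8. The averaged probes called HADHA by line in place of ACOT4. With the replicate number as a block, 3 genes were called by line (2.63% of all genes; CROT and ACAA1 added) and 2 by diet (15.2%). Each number was 1 row of 4 arrays on 1 slide, with 1 pig per group, so this block is also the slide row. Same-numbered arrays deviated together in part: their median r was 0.16 (lowest -0.22; 45 of 72 pairs above 0.1), beside 0.06 for pairs with different numbers on 1 slide and -0.03 for all pairs with different numbers, in each case between groups, and 19 of 48 arrays correlated best with their own number. The labels tie no numbers to shared animals or litters. The causes of these changes were not tested. With 12 pigs per group and 200 of 11081 genes changed by diet, a log2 difference of 0.2 was recovered in 38% of simulated cases, so small differences could be missed. The simulation drew values independently and held no line or interaction effect. The share of genes changed was also set by hand, so recovery in the data may differ.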
